A study of Mus musculus with 15 samples.

Results

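Mettl5 knockout (KO) mouse embryonic stem (ES) cells were compared before and after 6 days in N2B27 medium, a serum-free medium used to steer ES cells to the neural lineage. The members are the genes with an FPKM (fragments divided by the transcript's length and the library's size) of at least 1 in at least 2 of the 3 KO N2B27 and 3 KO ES libraries, which were 12375 of the 18762 genes in the table. The lowest second-highest value that passed was 1.0 FPKM and the highest that did not was 0.99. The cells were of the mouse strain C57BL/6N and carried either the Mettl5-/- genotype (KO) or wild type Mettl5 (WT). The series measured mRNA in 15 libraries: untreated ES cells at day 0, embryoid bodies (EBs) after 6 days without LIF in dishes coated with poly 2-hydroxyethyl methacrylate, which keeps cells from attaching, and N2B27 cultures at day 6. Each of these cultures had 3 KO and 2 WT libraries. The WT libraries of a culture carry different names in the labels, Ctr and WT, with the same genotype, and were taken as replicates. The labels do not say which part of Mettl5 was deleted, nor whether the replicates came from separate clones or cultures, so the p-values rest on the variation among libraries alone, which could be technical. RNA was captured with oligo(dT) beads from whole cultures, and in such bulk samples fewer cells of a type and less RNA per cell cannot be told apart.

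ES cells keep a network of transcription factors, built around Oct4, Sox2 and Nanog, that holds them undifferentiated under the cytokine LIF. When LIF and serum are withdrawn in N2B27, autocrine FGF signalling moves them out of this state, and without BMP and Nodal signals many become neuroepithelium that is then patterned along the body axes by WNT, FGF, retinoic acid and sonic hedgehog. METTL5 places a single N6-methyladenosine on the RNA of the small ribosomal subunit, with TRMT112 as the cofactor that stabilises it.

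The FPKM of a library summed to 497698 to 514409 in KO ES cells and 451651 to 478021 in KO N2B27 cultures, and the number of fragments behind them is unknown. Within-group correlations of log2 values across genes, which are not independent replicates, were 0.9965 to 0.9967 among the KO ES libraries and 0.9880 to 0.9942 among the KO N2B27 libraries. KO N2B27 replicate 2 was at least 2-fold above both other KO N2B27 libraries at 16 genes and at least 2-fold below both at 26, against 3 and 2 genes for replicate 1 and 9 and 4 for replicate 3. Mettl5 was still detected in the KO libraries. It had 10.65, 7.21 and 9.1 FPKM in KO ES and 3.91, 6.41 and 3.29 in KO N2B27, against 20.85 and 19.03 in WT ES and 8.37 and 8.65 in WT N2B27. Replicate 2 had the highest Mettl5 of the KO N2B27 libraries and was still below both WT N2B27 libraries. The labels were checked against marker genes. The summed FPKM of 5 ES cell markers (Pou5f1, Nanog, Zfp42, Esrrb, Dppa5a) was 3116 to 3257 in KO ES and 83.3 to 165 in KO N2B27, and that of 6 neural progenitor markers (Sox1, Pax6, Nes, Fabp7, Hes5, Sox3) was 8.93 to 12.4 and 223 to 333. Of the other marker lists, 5 epithelial markers summed to 40.7 to 42.1 and 308 to 486 FPKM, 6 neuronal markers to 278 to 304 and 427 to 586, 5 mesodermal markers to 1.23 to 1.35 and 10.03 to 23.49, and 5 endodermal markers to 0.81 to 1.25 and 4.55 to 11.9. The 5 endothelial and blood markers stayed at or below 1.36 in sum, with 2 of them at 0 in every KO N2B27 library.

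In KO cells 5435 genes were higher in N2B27 than in ES cells and 4193 were lower, at a limma adjusted p under 0.05. These are 43.9% and 33.9% of the genes tested, 77.8% together, and every count of a gene list below reads against these shares. At least 2-fold changes on the log2(FPKM + 1) scale were called in 2291 genes (18.5%) and 1272 genes (10.3%). All log2 changes are on this scale, on which weakly expressed genes appear to change less than they did. The 3 N2B27 libraries all lay above the 3 ES libraries for 46.3% of genes and all below for 36.2%. The median change of all genes was 0.11, and median-ratio scaling moved it to -0.01, with 4844 genes higher and 4812 lower (50.2% of calls higher, against 56.4%). Rescaling each library to the same sum (TPM) moved it to 0.22 (62.6% of calls higher). Of the genes tested, 10354 reached 1 FPKM in at least 2 libraries of both cultures, 1293 did so in N2B27 alone and 716 in ES cells alone. A gene that passed through 1 culture alone could hardly do other than differ, so the number of such genes is given with each list in which they are many, and the direction of those members is no result.

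**Figure D1:**
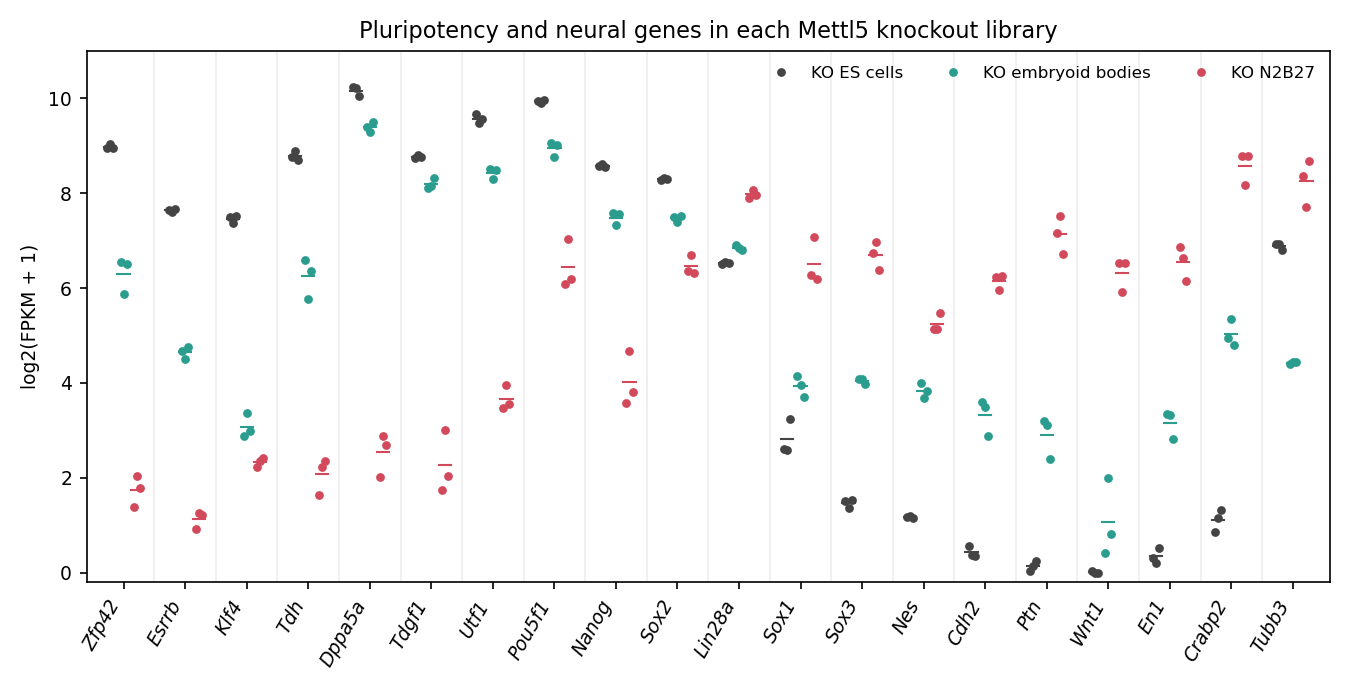
log2(FPKM + 1) of 20 pluripotency and neural genes (x axis) in each KO library. Each point is 1 library of KO ES cells, KO embryoid bodies or KO N2B27 cultures and each bar the mean of 3 libraries. For these genes the N2B27 points do not overlap with the ES points, and Sox2 and Pou5f1 keep higher levels in N2B27 than Zfp42 or Esrrb.

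Genes of naive pluripotency, the ground state of ES cells, were lower in KO N2B27 cultures. Of 20 listed genes 19 passed the filter, 6 of them through ES cells alone, and all 19 were lower, with a median log2 change of -5.12 against 0.11 for all genes. Zfp42 (Rex1), the classical marker of the undifferentiated state, had 495.4, 520.18 and 490.54 FPKM in the KO ES libraries 1 to 3 and 1.62, 3.08 and 2.45 in the KO N2B27 libraries 1 to 3 (log2 -7.24 ± 0.18, SE; adjusted p = 2.02e-13). Dppa5a, an RNA-binding protein of pluripotent cells, went from 1199.28, 1191.86 and 1049.57 to 3.04, 6.42 and 5.49 (log2 -7.63 ± 0.21; adjusted p = 6.42e-13). The N2B27 values lay far below the ES values in each library, and replicate 2 was the highest of the 3 for both genes. Esrrb, an orphan nuclear receptor of the naive network, fell from 200.27, 193.04 and 202.13 to 0.89, 1.39 and 1.34 FPKM (log2 -6.51 ± 0.11). Tdh, the threonine dehydrogenase that mouse ES cells depend on, fell by 6.71 ± 0.21 on the log2 scale. Klf2 and Klf4, Krüppel-like factors of the same network, fell by 5.38 ± 0.16 and 5.12 ± 0.13. The smallest change of the list was that of Cdh1 (E-cadherin), with 70.16, 70.78 and 68.5 FPKM in ES cells and 44.57, 49.22 and 59.32 in N2B27 (log2 -0.45 ± 0.15; adjusted p = 0.0144). The call of Cdh1 was lost with TPM scaling and without KO N2B27 replicate 1. Dppa3 had at most 1.06 FPKM in these libraries and was not tested.

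The core factors fell less and not all of them fell. Of 15 core pluripotency genes 11 were lower and 2 higher, with a median of -1.47. Pou5f1 (Oct4) had 980.13, 951.48 and 997.51 FPKM in ES cells and 66.87, 129.55 and 71.95 in N2B27 (log2 -3.50 ± 0.21; adjusted p = 1.18e-09). Nanog had 381.69, 388.32 and 376.17 and then 10.87, 24.5 and 12.94 (log2 -4.57 ± 0.21; adjusted p = 6.47e-11). For both genes N2B27 replicate 2 was above the other N2B27 libraries and still well under the ES range. Sox2, which neural progenitors also use, kept 80.95, 102.83 and 78.76 FPKM, against 310.32, 318.93 and 314.76 in ES cells (log2 -1.85 ± 0.09). Lin28a, which blocks the maturation of let-7 microRNAs, went the other way, from 89.87, 92.51 and 91.51 to 237.55, 267.77 and 248.87 FPKM (log2 1.45 ± 0.07). The N2B27 range of Lin28a lay wholly above its ES range. Tdgf1 (Cripto, the Nodal co-receptor), Utf1 and Dppa2 were lower by 6.50 ± 0.22, 5.90 ± 0.12 and 5.51 ± 0.15 on the log2 scale. Mycn had 53.4, 52.24 and 45.02 FPKM in ES cells and 47.88, 80.39 and 44.16 in N2B27, ranges that overlap (log2 0.14; adjusted p = 0.474).

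Genes of the formative and primed states, which ES cells pass on the way out of naive pluripotency, were split. Of 16 genes 9 were higher and 6 lower. Otx2, which directs this transition and later marks forebrain and midbrain, rose from 8.97, 11.58 and 7.28 to 134.36, 74.49 and 144.86 FPKM (log2 3.50 ± 0.21), and Fgf5, the marker of primed epiblast, from at most 0.07 to 4.57, 8.4 and 4.57 (log2 2.66 ± 0.18). Tcf15, a basic helix-loop-helix factor of cells leaving the naive state, fell from 165.86, 149.37 and 175.63 to 0.85, 0.78 and 0.57 (log2 -6.57 ± 0.14). The DNA methyltransferase genes Dnmt3l and Dnmt3a fell by 4.42 ± 0.16 and 1.29 ± 0.08 while Dnmt3b rose by 0.81 ± 0.16.

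Genes of the rare two-cell-like state of ES cultures mostly passed the filter through ES cells alone. All 8 listed genes that passed were lower in N2B27 (the others of the 15 listed were not tested). Of the 8, 6 had passed through ES cells alone, so that these calls largely follow the filter. The 2 that passed through both cultures were Usp17la and Eif1a, the latter still at 49.79, 44.68 and 51.3 FPKM in N2B27. Zscan4f had 47.38, 32.56 and 32.46 FPKM in ES cells and 0.51, 0.29 and 0.22 in N2B27 (log2 -4.83 ± 0.42). The Zscan4 genes are near-identical copies whose reads can be shared, so their single values are uncertain. Of the germline and meiosis genes 18 of 25 passed the filter, 12 of them through ES cells alone. The 16 lower and 1 higher calls thus largely follow the filter. Stra8, the gatekeeper of meiosis, had 41.84, 43.94 and 39.19 FPKM in ES cells and 0, 0.08 and 0 in N2B27 (log2 -5.38 ± 0.16), and Syce1 of the synaptonemal complex fell by 3.82 ± 0.09. The single higher gene, Rhox5, lost its call in 6 of the alternative settings.

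The signals that ES cells send and receive changed in ways that differed between ligands, receptors and feedback genes. LIF acts through its receptor and gp130 on STAT3. In this list 11 of 15 genes were lower and 4 higher: Lifr fell by 1.76 ± 0.12 and Stat3 by 2.18 ± 0.15. The STAT3 target Socs3, which inhibits the pathway, went from 65.63, 66.18 and 66.21 to 6.77, 7.62 and 5.75 FPKM (log2 -3.13 ± 0.21). Lif itself rose from 0.68, 0.43 and 0.55 to 1.51, 1.41 and 1.89 FPKM (log2 0.74 ± 0.10). In the FGF list 7 of 16 genes were higher and 7 lower. The share higher (43.75%) was near that of all genes, and the share lower (43.75%) was above it. Fgf4, the autocrine ligand of ES cells, had 51.89, 51.56 and 51.64 FPKM in ES cells and 0.48, 0.53 and 0.35 in N2B27 (log2 -5.18 ± 0.12). The receptor gene Fgfr2 moved in the opposite direction, from 0.33, 0.34 and 0.33 to 30.61, 17.6 and 44.84 FPKM (log2 4.49 ± 0.23), with replicate 2 the lowest of the N2B27 libraries. Feedback genes of ERK went both ways: Spry4 fell by 4.66 ± 0.12 on the log2 scale, while Dusp4, a phosphatase gene, rose from 2.61, 2.17 and 2.55 to 25.34, 28.17 and 22.74 FPKM (log2 2.94 ± 0.13). Of the Nodal list 8 of 14 tested genes were lower and 5 higher. Nodal itself fell from 34.36, 32.68 and 34.07 to 4.17, 6.37 and 5.45 FPKM (log2 -2.47 ± 0.16). Its antagonist and target Lefty2 fell by 4.26 ± 0.22 and Inhbb, an activin subunit, by 5.92 ± 0.08, while Fst (follistatin), which binds activin, rose by 4.05 ± 0.37.

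Neural progenitor genes mostly passed the filter through N2B27 alone. Of 30 listed genes 28 passed, 17 of them through N2B27 alone and 11 through both cultures. The 27 higher and 1 lower calls (median log2 2.78) thus largely follow the filter. Sox1, the earliest transcription factor specific to neuroectoderm, had 5.13, 4.98 and 8.41 FPKM in ES cells and 76.1, 134.11 and 71.53 in N2B27 (log2 3.70 ± 0.23; adjusted p = 1.8e-09). Sox3, its relative in the same SoxB1 group, rose from 1.87, 1.59 and 1.88 to 105.21, 124.05 and 81.72 (log2 5.22 ± 0.14), so that both stood at levels near or above that of Sox2. Nes (nestin), the intermediate filament of progenitors, rose from 1.25, 1.3 and 1.24 to 34.41, 34.32 and 43.13 FPKM (log2 4.07 ± 0.12). Replicate 2 was the highest N2B27 library for Sox1 and Sox3 but not for Nes, and no N2B27 value of these genes came near the ES range. Ptn (pleiotrophin, a growth factor of developing brain) and Cdh2 (N-cadherin) had 103.78 to 183.25 and 61.21 to 75.24 FPKM in N2B27 and at most 0.18 and 0.48 in ES cells (log2 6.99 ± 0.26 and 5.72 ± 0.15). Pax6, which rises later in forebrain and spinal cord progenitors, stayed low, at 2.28, 4.06 and 2.86 FPKM against 0.88, 0.63 and 0.64 (log2 1.22 ± 0.18; adjusted p = 2.48e-05). The lower gene was Slc1a3, the glutamate transporter of radial glia (log2 -0.34 ± 0.13; adjusted p = 0.0303), and 7 of the alternative settings ended this call.

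Along the head-to-tail axis of the neural tube, midbrain genes and those of its boundary with the hindbrain mostly passed the filter through N2B27 alone. Of 18 midbrain and isthmus genes 17 passed, 12 through N2B27 alone and 5 through both cultures. The 15 higher and 2 lower calls, with a median of 3.34, thus largely follow the filter. Wnt1, secreted at the isthmus and along the dorsal midline, was at 0.02, 0 and 0 FPKM in KO ES cells and at 91.3, 59.13 and 91.59 in KO N2B27 (log2 6.31 ± 0.38; adjusted p = 1.52e-09). En1, the homeobox gene that defines midbrain and anterior hindbrain, had 0.24, 0.15 and 0.43 and then 115.74, 97.81 and 69.51 FPKM (log2 6.20 ± 0.21; adjusted p = 3.85e-12). Both genes were thus among the most strongly expressed patterning genes in each of the 3 N2B27 libraries, with no overlap with ES cells. Otx1 had 28.97, 15.54 and 21.83 FPKM in N2B27, Lmx1a of the roof plate and dopaminergic midbrain 21.72, 9.56 and 25.3, and the dorsal gene Pax3 20.26, 8.4 and 20.27. Replicate 2 was the lowest library for these 3 genes and for Pax7, which was listed at 0 in the 3 KO ES libraries and had 16.21, 10.17 and 16.57 FPKM. Fgf8, the organiser signal of the isthmus, rose to 10.46, 14.59 and 6.81 FPKM (log2 3.05 ± 0.32), while Fgf17, which is expressed beside it in the embryo, fell from 35.2, 31.55 and 31.47 to 1.61, 1.59 and 1.4 (log2 -3.74 ± 0.17).

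Few forebrain genes reached the filter. Of 18 listed 4 passed it, 3 of them through N2B27 alone, and all 4 were higher, and the 14 that did not pass include Six3, Rax and Nkx2-1. Fezf2, a forebrain zinc finger gene, had 3.25, 6.07 and 3.86 FPKM and 0 in the KO ES libraries, with replicate 2 the highest. Of 25 hindbrain and spinal genes 10 passed the filter, with 6 higher and 4 lower, but 6 had passed through N2B27 alone and 3 through ES cells alone. Irx3 and Irx5, Iroquois factors of the neural tube behind the forebrain, had 42.66, 65.5 and 37.41 and 43.4, 59.11 and 36.92 FPKM in N2B27 against at most 0.2 in ES cells (log2 5.47 ± 0.18 and 5.35 ± 0.17). Hoxa2 of the hindbrain rose to 1.34, 3.12 and 0.84 FPKM. The posterior genes Cdx1 and Hoxb9 fell by 2.51 ± 0.09 and 0.99 ± 0.11, and most of the listed Hox genes did not pass the filter. Gbx2, which ES cells express and which later marks the hindbrain side of the isthmus, had 74.21, 60.93 and 81.03 FPKM in ES cells and 27.96, 48.76 and 21.85 in N2B27 (log2 -1.18 ± 0.29; adjusted p = 0.00188).

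On the ventral axis genes moved in both directions. Of 15 genes 9 passed the filter, 2 through N2B27 alone and 1 through ES cells alone, with 5 lower and 3 higher, and Shh was not among them. Gli1, a transcription factor and direct target of the pathway, went from 47.99, 43.4 and 39.91 to 1.24, 2.95 and 1.43 FPKM (log2 -4.00 ± 0.18; adjusted p = 8.16e-11). The receptor gene Ptch1, also a target, fell by 1.56 ± 0.18, and the transducer Smo rose by 1.72 ± 0.07. The floor plate factor Foxa2 rose to 1.22, 4.94 and 2.29 FPKM (log2 1.37 ± 0.34; adjusted p = 0.00185), and Nkx6-1 of ventral progenitors, listed at 0 in KO ES cells, was called higher at 1.69, 2.2 and 0.86. Replicate 2 was the highest library for both.

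**Figure D2:**
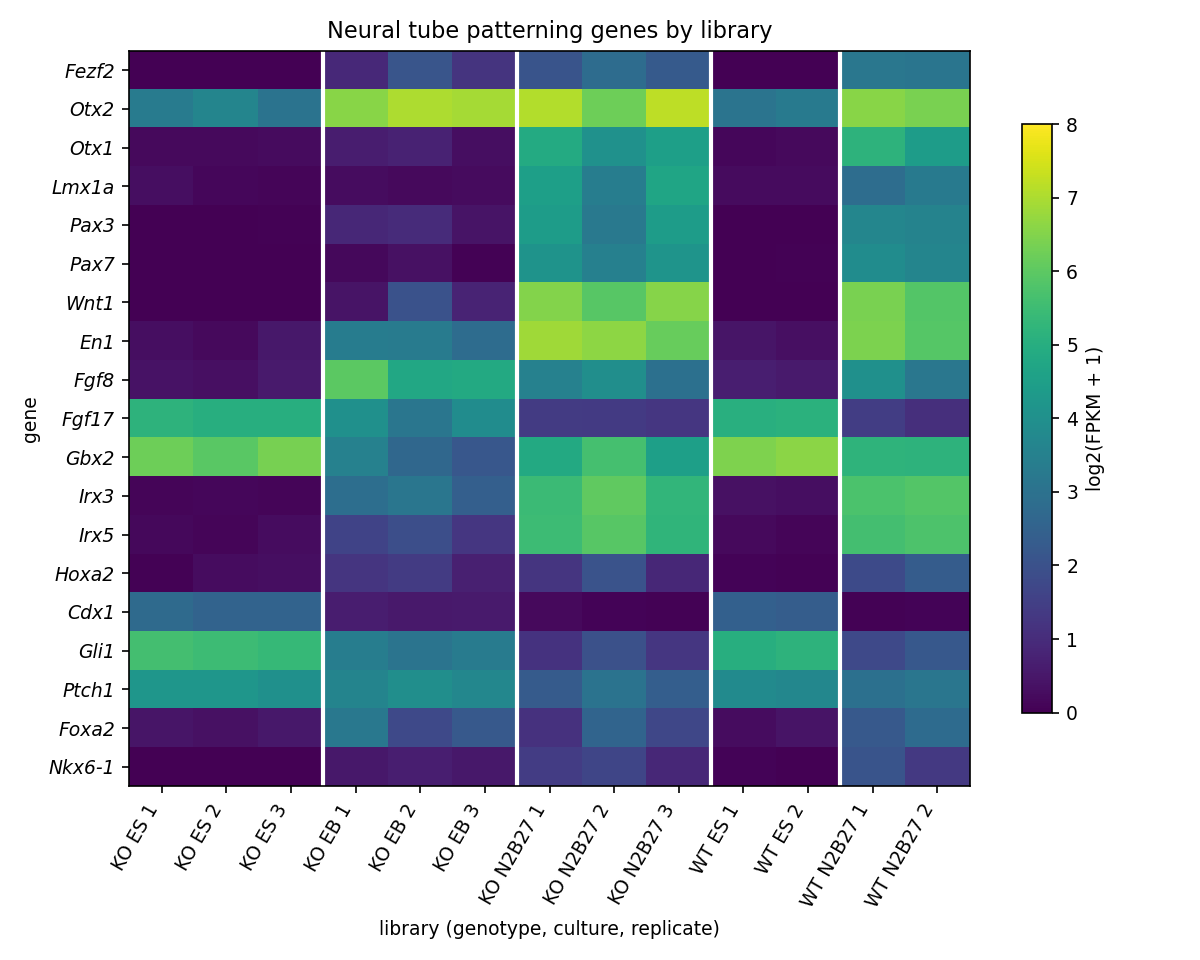
Heat map of log2(FPKM + 1) (colour scale, 0 to 8) for 19 patterning genes (rows, from forebrain through midbrain, isthmus and hindbrain to ventral genes) in 13 libraries (columns, grouped by genotype and culture). Wnt1, En1, Otx2, Irx3 and Irx5 are bright in each N2B27 library, Hoxa2 stays dim, and Gli1 is bright in ES cells.

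Transcription factors that start neurogenesis mostly passed the filter through N2B27 alone. Of 30 proneural and early neuronal transcription factors 21 passed, 16 through N2B27 alone, 2 through ES cells alone and 3 through both. The 19 higher and 2 lower calls (median log2 1.46) thus largely follow the filter, and the levels of single genes are given as a description. Neurog1 (neurogenin 1), which acts in dorsal and sensory progenitors, reached 19.28, 10.11 and 22.25 FPKM (log2 4.06 ± 0.21) and Insm1, a zinc finger gene of newborn neurons, 10.41, 7.34 and 10.62 (log2 3.21 ± 0.15). Replicate 2 had the lowest value of the N2B27 libraries for both genes. Neurog3, of endocrine progenitors, was at most 1.39 FPKM and was lower in N2B27 (log2 -1.07 ± 0.13).

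Structural genes of neurons rose, with exceptions that ES cells already expressed. Of 35 cytoskeletal and RNA-binding genes, 10 having passed through N2B27 alone, 28 were higher and 6 lower. Tubb3, the neuronal beta-tubulin, had 121.16, 120.68 and 110.26 FPKM in ES cells and 327.59, 209.39 and 405.37 in N2B27 (log2 1.36 ± 0.21; adjusted p = 2.97e-05). Map2, of dendrites, rose from 0.67, 0.82 and 0.65 to 18.39, 12.58 and 21.06 (log2 3.39 ± 0.15), and the neurofilament gene Nefm from at most 0.57 to 31.69, 32.64 and 37.1 (log2 4.65 ± 0.12). Tubb3 and Map2 were lowest in replicate 2, whereas Nefm was not. Nefh, the heavy neurofilament chain, went from 19.45, 17.17 and 15.86 down to 2.82, 3.57 and 2.87 FPKM (log2 -2.18 ± 0.12), and Mapt (tau) and Prph (peripherin) fell by 1.81 ± 0.12 and 1.37 ± 0.14. Stmn2 had 176.51, 165 and 160.36 FPKM in ES cells and 93.27, 165.47 and 108.07 in N2B27, ranges that overlap (log2 -0.49 ± 0.20; adjusted p = 0.0371). Of 45 synaptic genes 24 passed the filter, 9 through N2B27 alone, with 18 higher and 4 lower and a median of 0.70 (0.80 without replicate 2). The 21 that did not pass include the transmitter enzymes Gad1, Th and Chat. Among those that rose, Syt1 of synaptic vesicles reached 4.36, 2.57 and 6 FPKM and Snap25 of the release machinery 1.99, 2.03 and 2.41.

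Axon guidance genes, most of which progenitors express as well, mostly passed the filter through N2B27 alone. Of 37 listed 30 passed, 18 through N2B27 alone, 1 through ES cells alone and 11 through both cultures. The 27 higher and 1 lower calls thus largely follow the filter. The ephrin gene Efna5 went from 0.17, 0.12 and 0.13 to 49.91, 37.86 and 56.11 FPKM (log2 5.41 ± 0.19), and Nrp2, a semaphorin co-receptor, from 0.97, 1.06 and 0.98 to 40.45, 35.85 and 35.66 (log2 4.26 ± 0.16). The semaphorin Sema5b was the lower gene (log2 -1.27 ± 0.15). Of 15 glial genes 7 passed the filter, 5 of them through N2B27 alone, and 5 were higher and none was called lower by limma. Mbp, whose locus also makes transcripts outside myelin, had 12.11, 8.25 and 14.9 FPKM and Pdgfra, which is not specific to glia, 7.68, 3.6 and 8.92. The astrocyte markers Gfap and Aqp4 did not pass the filter.

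WNT signalling genes, from secretion to targets, were mostly called higher, in part through the filter. Of 30 genes 28 passed the filter, 14 through N2B27 alone and 14 through both cultures, and 23 were higher and 2 lower (median log2 2.61). The direction of the 14 that passed through N2B27 alone, Wls among them, is no result. Wls, which carries WNT proteins to the cell surface, had 0.62, 0.35 and 1.02 FPKM in ES cells and 199.91, 131.72 and 205.74 in N2B27 (log2 6.75 ± 0.20; adjusted p = 9.59e-13). Axin2, a direct target that feeds back on the pathway, had 4.7, 4.41 and 4.34 and then 62.44, 45.9 and 60.03 FPKM (log2 3.37 ± 0.16). The membrane inhibitor Apcdd1, also a target, had 1.66, 1.22 and 1.34 and then 142.33, 68.57 and 124.48 FPKM (log2 5.49 ± 0.25). For these genes replicate 2 was the lowest N2B27 library, and it was still far above the ES range. Sp5, a transcription factor induced by WNT, rose by 4.79 ± 0.36, and the ligand-enhancing Rspo2 was listed at 0 in KO ES cells and had 16.11, 9 and 20.98 FPKM in N2B27. Notum, a secreted enzyme that inactivates WNT proteins, fell from 17.89, 16.99 and 19.45 to 1.51, 1.16 and 1.03 FPKM (log2 -3.10 ± 0.20).

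By the NOTCH pathway neighbouring progenitors restrain each other from becoming neurons. Of its 17 genes tested, 5 having passed through N2B27 alone, 12 were higher and 2 lower (median log2 1.32). The ligand gene Dll1, made by cells about to differentiate, rose from 0.26, 0.31 and 0.29 to 22.51, 17.22 and 21.2 FPKM (log2 4.04 ± 0.23), and Lfng, a glycosyltransferase that tunes the receptor, from 0.97, 0.68 and 0.67 to 23.7, 20.31 and 21.9 (log2 3.70 ± 0.15). Hes5, the target that holds cells as progenitors, had 0.31, 0.13 and 0.21 FPKM in ES cells and 9.44, 8.07 and 6.44 in N2B27 (log2 2.87 ± 0.18; adjusted p = 1.67e-09). The N2B27 values of these 3 genes lay close together and apart from ES cells. All 3 had passed through N2B27 alone, so their direction is no result. Hes1, which ES cells express under other signals, had 48.32, 46.43 and 49.72 and then 44.59, 52.93 and 38.96 FPKM, ranges that overlap (adjusted p = 0.499). Rbpj, the DNA-binding partner of the pathway, was lower at 25.46, 23.61 and 25.62 FPKM against 64.01, 66.87 and 67.89 (log2 -1.38 ± 0.07). The Hes5 promoter is shown because Hes5 is the list's direct readout. Its 300 bases span the start, most of them before it (RefSeq, GRCm38.p6), in lower case, with the RBPJ core motif TGGGAA in capitals on either strand (TTCCCA on the other).
Hes5 (chr4:154960673-154960972, plus strand): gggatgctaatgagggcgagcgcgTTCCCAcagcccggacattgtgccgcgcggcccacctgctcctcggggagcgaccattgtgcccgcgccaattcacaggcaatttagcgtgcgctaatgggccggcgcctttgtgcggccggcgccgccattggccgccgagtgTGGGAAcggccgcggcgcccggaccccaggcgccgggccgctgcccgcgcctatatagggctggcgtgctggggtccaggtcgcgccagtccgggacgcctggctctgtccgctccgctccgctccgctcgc
The motif stood in the promoters of 4 of the 16 NOTCH list genes that have one in the RefSeq table (25.0%) and in 26.3% of all tested genes with a promoter there.

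Genes of retinoic acid handling and BMP signalling moved in part in opposite directions. Of 16 retinoic acid genes 11 passed the filter, with 9 higher and 2 lower. Crabp2, which carries retinoic acid to its nuclear receptors, had the largest increase of any listed gene, from 0.82, 1.21 and 1.51 to 436.68, 285.79 and 437.95 (log2 7.46 ± 0.22; adjusted p = 8.53e-13). Crabp1 rose from 34.35, 32.78 and 28.51 to 104.51, 111.92 and 90.71 (log2 1.65 ± 0.25), and Rdh10, which makes the retinoic acid precursor, by 3.15 ± 0.17. The 2 that fell were receptor genes: Rarg went from 141.57, 129.44 and 141.22 to 19.83, 25.17 and 22.11 FPKM (log2 -2.57 ± 0.09) and Rara fell by 1.99 ± 0.07. In the BMP list 9 of 12 genes were higher and 2 lower. Msx1, a roof plate and midbrain factor induced by BMP, had 0.14, 0.09 and 0.11 and then 74.59, 35.23 and 67.1 FPKM (log2 5.68 ± 0.28), and the antagonist Nog (noggin) rose to 16.29, 8.43 and 23.35. The ligand gene Bmp4 fell from 27.85, 28.65 and 31.36 to 5.03, 3.82 and 6.96 FPKM (log2 -2.30 ± 0.19). All 3 were lowest in replicate 2 among the N2B27 libraries. Id1, a common readout of BMP, had 54.27 to 70.05 FPKM in ES cells and 64.77 to 82.73 in N2B27, which overlap (adjusted p = 0.2).

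Genes of other fates were few among those tested and stood mostly at low FPKM. Of 16 neural crest genes 12 passed the filter, 5 through N2B27 alone and 2 through ES cells alone, with 6 higher and 5 lower. Tfap2b rose to 19.65, 9.03 and 27.08 FPKM (log2 4.15 ± 0.29) and Twist1 by 2.52 ± 0.11, while Foxd3, a crest factor that ES cells also need, fell from 20.53, 17.21 and 22.08 to 0.71, 0.7 and 0.67 (log2 -3.62 ± 0.18) and Sox10 did not pass. Of 23 streak and mesoderm genes 10 passed, 5 through N2B27 alone and 3 through ES cells alone, with 4 higher and 4 lower. T (Brachyury), the streak factor, had 8.21, 20.88 and 8.27 FPKM against at most 0.18 (log2 3.48 ± 0.43), with replicate 2 far above the other libraries. Of 20 endoderm genes 9 passed, 7 through N2B27 alone and 2 through ES cells alone, so that the 7 higher and 2 lower calls follow the filter. Among them were Sox17 at 1.24, 2.6 and 3.8 and Gata4 at 1.48, 2.59 and 4.68 FPKM. In the blood and endothelium list 7 of 18 passed, 3 through N2B27 alone and 4 through ES cells alone, and 3 were higher and 3 lower. In the trophoblast list 6 of 12 passed, 2 through N2B27 alone and 1 through ES cells alone, and 2 were higher and 3 lower.

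Epithelial and matrix genes reached higher levels than these. Of 22 epithelial genes 17 passed, with 9 higher and 6 lower, or 8 and 7 with median-ratio scaling. The simple-epithelial keratin genes Krt18 and Krt8 rose from 5.46, 5.91 and 6.67 to 143.12, 149.18 and 222.76 FPKM and from 8.02, 7.95 and 8.41 to 149.39, 163.14 and 242.8 (log2 4.6 ± 0.18 and 4.32 ± 0.20). The basal keratins Krt5 and Krt14 did not pass the filter, and Epcam fell by 0.48 ± 0.15 (adjusted p = 0.0114, a call lost without KO N2B27 replicate 1). Of 32 genes listed for fibroblasts and matrix 26 passed, 12 through N2B27 alone, with 22 higher and 2 lower (median log2 2.18). Igfbp5, which binds insulin-like growth factors, rose from 0.08, 0.09 and 0.05 to 176.88, 144.53 and 218.62 FPKM (log2 7.38 ± 0.24), and Thbs1 (thrombospondin 1) from at most 0.15 to 96.76, 114.19 and 154.25 (log2 6.73 ± 0.26). The contractile genes Tagln and Acta2 reached 125.69, 132.71 and 237.86 and 35.61, 28.41 and 74.51 FPKM (log2 5.78 ± 0.25 and 5.38 ± 0.40). Replicate 3 was the highest library for the 2 keratins and for these 4 genes. The summed level of the 7 fibroblast and feeder markers (Col1a1, Col1a2, Col3a1, Thy1, Postn, Lum, Dcn) was 12.3 to 14.4 FPKM in KO ES and 10.7 to 15.2 in KO N2B27, and 6 of the 7 were below 1 in every ES library against 2 in N2B27. Thy1 made up nearly all of the ES sum, with 14.04, 13.85 and 11.91 FPKM, and was lower in N2B27 at 3.32, 8.4 and 3.45. Col1a1 and Col1a2 rose by 0.99 ± 0.15 and 1.98 ± 0.23. The part of such cells in these values was not tested. In the list of cadherins and EMT regulators 17 of 20 were higher and 3 lower. As 13 had passed through N2B27 alone, the higher calls largely follow the filter. Members of this list included Zeb2 (log2 3.10 ± 0.11) and Cdh3 (log2 -2.06 ± 0.24).

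**Figure D3:**
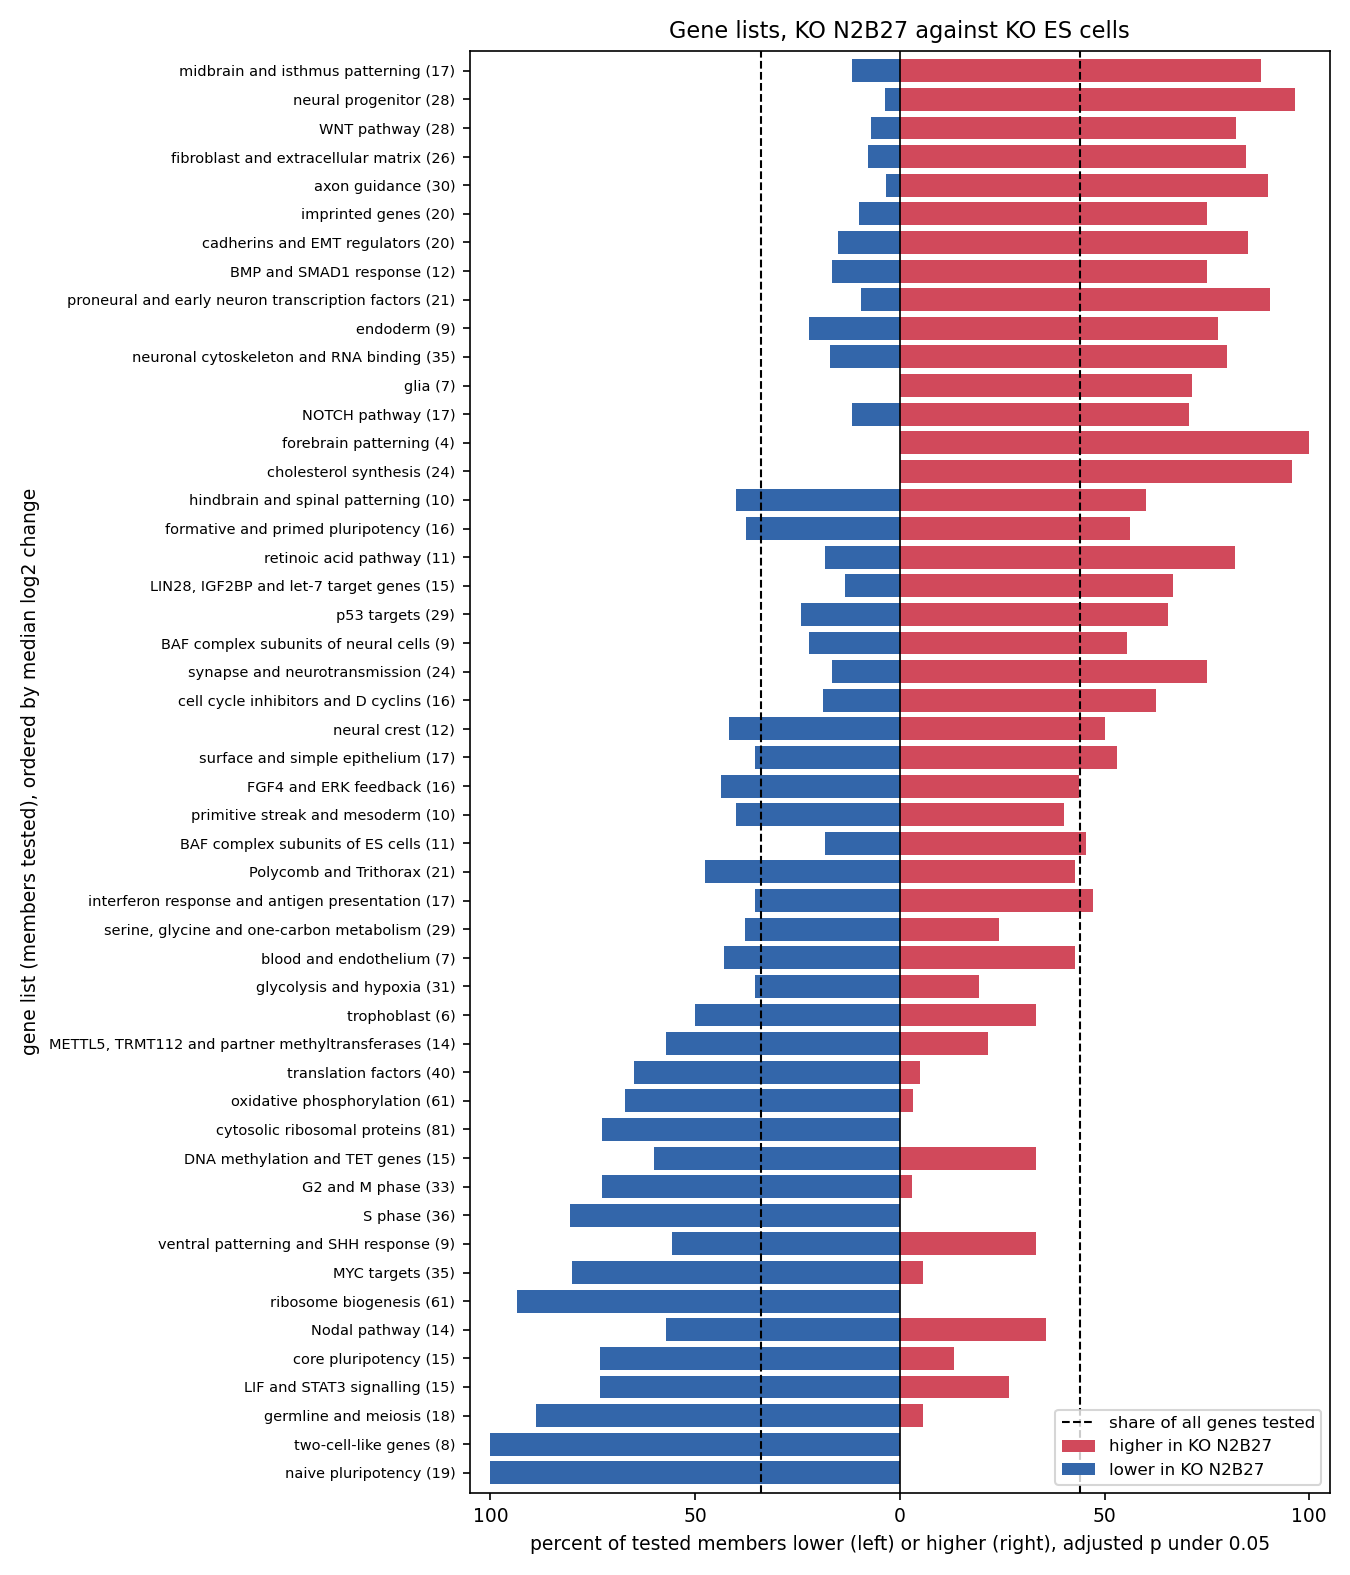
Share of the tested members of 50 gene lists called higher (red, right) or lower (blue, left) in KO N2B27 than in KO ES cells, in percent, ordered by the median log2 change of the list. Dashed lines mark the shares of all genes tested, 43.9% and 33.9%, and the number of tested members stands in parentheses.

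Chromatin regulators moved in both directions. In the Polycomb and Trithorax list 9 of 21 genes were higher and 10 lower, with a median of 0.11, or -0.01 with median-ratio scaling. The share higher (42.9%) was near that of all genes, and the share lower (47.6%) was above it. The PRC1 subunit Bmi1 rose from 0.8, 1.26 and 1.11 to 25.93, 18.3 and 23 FPKM (log2 3.50 ± 0.15), and Cbx7, the chromobox protein of ES cell PRC1, fell from 71.52, 70.48 and 74.69 to 12.65, 14.46 and 12.46 (log2 -2.37 ± 0.09). Both ranges are separate from those in ES cells. Eed of PRC2 fell by 1.69 ± 0.08, whereas its catalytic partner Ezh2 had 53.73 to 56.19 FPKM in ES cells and 56.02 to 63.36 in N2B27 (log2 0.11 ± 0.08; adjusted p = 0.225, a value of -0.01 with median-ratio scaling and a call, at 0.23, with TPM scaling). Of the BAF remodelling genes of neural cells 5 of 9 tested were higher and 2 lower, with 2 having passed through N2B27 alone. Among those 2 was the ATPase gene Smarca2, at 0.42, 0.14 and 0.12 FPKM in ES cells and 11.83, 9.58 and 11.99 in N2B27 (log2 3.31 ± 0.13). Among 15 DNA methylation genes 9 were lower and 5 higher, with the demethylase genes Tet1 and Tet3 at -2.89 ± 0.11 and 1.83 ± 0.10.

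Imprinted genes, expressed from 1 parental allele and linked to growth of the embryo, were mostly higher. Of 28 listed genes 20 passed the filter, with 15 higher and 2 lower (median log2 1.63), or 14 and 2 with median-ratio scaling. Igf2, a growth factor, had 0.91, 0.55 and 0.97 FPKM in ES cells and 322.6, 144.64 and 516.48 in N2B27 (log2 7.33 ± 0.36; adjusted p = 1.31e-10), with replicate 2 the lowest and replicate 3 the highest. Mest went from 59.7, 57.81 and 58.09 to 881, 714.31 and 863.31 (log2 3.78 ± 0.25), and Cdkn1c, a cell cycle inhibitor, from 27.81, 20.15 and 36.66 to 228.22, 213.69 and 348.61 (log2 3.18 ± 0.26). Phlda2, which restrains placental growth, fell from 151.25, 120.01 and 143.56 to 7.74, 10.65 and 7.86 (log2 -3.84 ± 0.11). In the list of LIN28, IGF2BP and let-7 target genes 10 of 15 were higher and 2 lower. Hmga2, a let-7 target of stem cells, reached 32.06, 49.07 and 26.08 FPKM (log2 2.22 ± 0.20), Lin28b rose by 2.03 ± 0.10, and Igf2bp3 by 1.38 ± 0.06.

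Genes of the ribosome and of growth were lower. All 81 cytosolic ribosomal protein genes listed passed the filter. None was called higher by limma and 59 were called lower, with a median log2 change of -0.37 (-0.48 relative to the median of all genes). With median-ratio scaling 72 were lower, and with TPM scaling 50 were lower and 1 higher. Rplp0 of the ribosomal stalk had 2461.1, 2353.02 and 2176.98 FPKM in ES cells and 1935.41, 2002.74 and 1598.99 in N2B27 (log2 -0.34 ± 0.10; adjusted p = 0.00472). The 3 N2B27 values lie below the 3 ES values. Rpl37 was at -0.59 ± 0.14, and the highest member was Rps19 (log2 0.09 ± 0.08; adjusted p = 0.327). Many ribosomal protein genes have processed pseudogenes with which reads can be shared, so single values are uncertain.

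Ribosome biogenesis genes fell further, with 57 of 61 lower and none called higher by limma (median log2 -0.80). Ncl (nucleolin), which binds nascent ribosomal RNA, had 434.23, 459.33 and 450.57 FPKM and then 234.22, 268.64 and 218.5 (log2 -0.90 ± 0.10). Rrp9, of the particle that directs early cleavage of ribosomal RNA, had 124.22, 111.42 and 108.4 and then 40.75, 45.76 and 33.43 (log2 -1.51 ± 0.11). Replicate 2 was the highest and replicate 3 the lowest N2B27 library for both genes. Myc, which drives such genes, fell from 69.35, 59.81 and 65.9 to 18.95, 19.04 and 21.66 FPKM (log2 -1.66 ± 0.14), and of 35 MYC targets 28 were lower and 2 higher. Srm, the spermidine synthase gene among them, fell by 1.41 ± 0.11. Of 40 translation factors 26 were lower and 2 higher, and the 2 higher calls, Eif4g2 and Eif4h, were lost with median-ratio scaling. In the list of METTL5, TRMT112 and related methyltransferases, 8 of 14 tested genes were lower and 3 higher. Trmt112, the shared cofactor of several methyltransferases, had 121.89, 107.51 and 112.24 FPKM and then 91.23, 93.54 and 75.86 (log2 -0.39 ± 0.10; adjusted p = 0.00237). N6amt1, another enzyme that binds TRMT112, rose by 1.03 ± 0.09, and Dimt1, which methylates adenines of the small subunit RNA, fell by 0.89 ± 0.09. Mettl5 itself was lower in N2B27 by 0.88 ± 0.20 on the log2 scale (adjusted p = 0.00118).

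Energy metabolism genes changed unevenly. Of 31 glycolysis and hypoxia genes tested 11 were lower and 6 higher (median log2 -0.17), which is near the background share for lower genes. Pfkp, a phosphofructokinase gene, went from 33.64, 38.02 and 32.99 to 1.98, 2.07 and 2.24 FPKM (log2 -3.53 ± 0.19). Pdk1, which keeps pyruvate out of the mitochondria, fell by 2.93 ± 0.14, and Ldha (lactate dehydrogenase A) went from 624.95, 623.23 and 613.87 to 155.53, 213.15 and 152.45 (log2 -1.85 ± 0.12). These 3 were below the ES range in each N2B27 library. P4ha1, a prolyl hydroxylase of collagen, rose by 1.38 ± 0.36. Of 61 oxidative phosphorylation genes 41 were lower and 2 higher (median log2 -0.37), with Atp5g1 at -1.26 ± 0.09 and Cox7c at -1.07 ± 0.10. In the serine, glycine and one-carbon list 11 of 29 tested genes were lower and 7 higher. Besides Tdh, the cytosolic enzyme gene Shmt1 fell most, by 1.98 ± 0.14.

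Cholesterol synthesis genes rose almost without exception. All 24 listed genes passed the filter in both cultures, and 23 were higher, against 43.9% of all genes, with a median log2 change of 1.29. The one without a call was Ebp (log2 0.12 ± 0.08; adjusted p = 0.185), which rose as well with TPM scaling. Hmgcs1, the synthase at the pathway's entry, had 36.78, 45.12 and 40.02 FPKM in ES cells and 263.95, 224.78 and 243.86 in N2B27 (log2 2.56 ± 0.11; adjusted p = 4.49e-11). Cyp51, the lanosterol demethylase, had 9.91, 9.64 and 9.74 and then 59.52, 49.36 and 60.35 (log2 2.41 ± 0.09). Msmo1, a sterol oxidase of the later steps, had 39.91, 42.74 and 38.2 and then 187.52, 148.09 and 170.51 (log2 2.03 ± 0.13). In these genes the 3 N2B27 libraries were close together, with replicate 2 the lowest of them. Nsdhl, a dehydrogenase of the same branch as Cyp51, rose by 1.79 ± 0.12. The 4 promoters below are shown because these members moved together. They were taken from RefSeq (GRCm38.p6), 300 bases that span the start, most of them before it, and capitals mark the CCAAT box on either strand (ATTGG on the other).
Hmgcs1 (chr13:119690101-119690400, plus strand): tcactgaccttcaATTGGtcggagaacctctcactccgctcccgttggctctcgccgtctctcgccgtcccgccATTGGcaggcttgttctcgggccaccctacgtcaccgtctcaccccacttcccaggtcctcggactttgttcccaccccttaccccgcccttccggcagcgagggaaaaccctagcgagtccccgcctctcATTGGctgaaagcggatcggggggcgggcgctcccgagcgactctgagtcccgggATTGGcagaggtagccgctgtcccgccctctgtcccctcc
Cyp51 (chr5:4104648-4104947, minus strand): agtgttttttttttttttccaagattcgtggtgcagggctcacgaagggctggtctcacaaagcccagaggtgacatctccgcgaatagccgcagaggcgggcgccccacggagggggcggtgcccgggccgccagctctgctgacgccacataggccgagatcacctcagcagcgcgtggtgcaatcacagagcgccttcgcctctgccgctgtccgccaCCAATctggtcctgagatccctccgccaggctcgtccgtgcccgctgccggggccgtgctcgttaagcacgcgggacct
Msmo1 (chr8:64733529-64733828, minus strand): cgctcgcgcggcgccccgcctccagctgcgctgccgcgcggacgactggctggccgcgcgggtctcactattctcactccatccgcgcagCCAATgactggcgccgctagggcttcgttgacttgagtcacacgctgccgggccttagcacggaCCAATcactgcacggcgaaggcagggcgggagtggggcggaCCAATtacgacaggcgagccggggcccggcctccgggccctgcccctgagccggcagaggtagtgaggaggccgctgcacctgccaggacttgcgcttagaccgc
Nsdhl (chrX:72918271-72918570, plus strand): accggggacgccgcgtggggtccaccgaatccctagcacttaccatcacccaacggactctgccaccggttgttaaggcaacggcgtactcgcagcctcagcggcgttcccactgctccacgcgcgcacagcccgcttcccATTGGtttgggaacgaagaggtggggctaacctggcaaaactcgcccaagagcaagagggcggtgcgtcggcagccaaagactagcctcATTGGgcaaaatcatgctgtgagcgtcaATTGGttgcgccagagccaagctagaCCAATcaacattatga
A CCAAT box stood in a promoter of 16 of the 17 cholesterol genes found in the RefSeq table (94.1%) and in 43.8% of the 9948 tested genes with a promoter there. Counted by promoter, it was 16 of 20 (80.0%) and 37.4% of 32851. The sterol regulatory element, searched as a single consensus on both strands, was in none of the 17, and in 0.201% of the tested genes. A consensus this rare could hardly be met in 17 genes, and sites that differ from it were not searched. Its absence here is therefore no result. A match describes the letters in this window, not a bound site.

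Most listed cell division genes were lower. Of 36 S phase genes 29 were lower and none was called higher by limma (median log2 -0.66), with TPM scaling giving 25 lower and 1 higher. Ccne1, the cyclin of the entry into S phase, had 139.41, 132.3 and 125.95 FPKM and then 39.43, 38.42 and 37.07 (log2 -1.76 ± 0.12). Of 33 G2 and M phase genes 24 were lower and 1 higher, with the checkpoint kinase gene Bub1b at -1.21 ± 0.09, while the proliferation marker Mki67 had 22.54 to 28.82 FPKM in ES cells and 26.77 to 30.46 in N2B27 (adjusted p = 0.311). Of 16 tested cell cycle inhibitors and D cyclins 10 were higher and 3 lower (median log2 0.66). Cdkn1a (p21) rose from 30.66, 27.74 and 30.39 to 151.43, 127.57 and 180.52 FPKM (log2 2.32 ± 0.10), and Gadd45g from at most 0.48 to 36.98, 20.32 and 42.76 (log2 4.61 ± 0.30). Among the D cyclins, Ccnd2 rose by 1.67 ± 0.14, Ccnd3 fell by 1.32 ± 0.13, and Ccnd1 was at 52.81 to 71.52 FPKM in N2B27 against 63.21 to 68.26 (adjusted p = 0.462). Of 29 p53 targets tested 19 were higher, among them Cdkn1a, Btg2 (log2 2.58 ± 0.09) and Ddit4 (log2 3.38 ± 0.36), and 7 were lower, among them Pmaip1 (log2 -2.52 ± 0.14), which promotes apoptosis. In the interferon and antigen presentation list 8 of 17 tested were higher and 6 lower (47.1% and 35.3%), which is near the shares of all genes. Tap1 and B2m, of antigen presentation, rose by 3.005 ± 0.12 and 2.19 ± 0.10, and the antiviral gene Ifitm3 fell by 2.21 ± 0.09.

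The largest increases in KO cells by the rule for named genes were those of Crabp2, Igfbp5, Igf2, Ptn, Wls, Thbs1, Wnt1, En1, Tagln, Cdh2, Msx1 and Arl4c, at 5.62 to 7.46 on the log2 scale. The largest decreases, at -5.43 to -7.63, were those of Dppa5a, Zfp42, Tdh, Tcf15, Esrrb, Tdgf1, Gm7325, Inhbb, Utf1, Bcl3, Dppa2 and Hsd17b14. Of the increases, all but Crabp2 and Tagln had passed the filter through N2B27 alone. Of the decreases, Tcf15, Gm7325, Inhbb, Bcl3 and Dppa2 had passed through ES cells alone. The direction of such genes is no result. Arl4c, a small GTPase gene, had 65.72, 83.56 and 65.85 FPKM in N2B27 and at most 0.58 in ES cells. The genes with the widest range among the 3 KO N2B27 libraries were different ones: Rps27rt, Cd99, Hist1h2af, Hist1h2ag, Ogn, Xlr3b, Adcy8 and Hist2h2aa1. Of these, Cd99 had 11.39, 100.85 and 13.49 FPKM in N2B27 and 5.33, 29.41 and 6.03 in ES cells, so that the library numbered 2 was high in both cultures. Ogn (osteoglycin, a matrix protein) had 7.29, 1.97 and 15.12 FPKM in N2B27 and at most 0.04 in ES cells (log2 2.85 ± 0.40). Several of the rest belong to families of near-identical genes (histones, Xlr3, a ribosomal copy), whose values are uncertain.

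N2B27 and EB cultures of the same KO genotype were set side by side to show what distinguished 6 days in N2B27 from 6 days of aggregation. In KO N2B27 4960 genes were higher than in KO EBs and 3513 lower, which are 40.1% and 28.4% of the genes tested, and at least 2-fold changes were called in 1148 (9.28%) and 857 (6.93%). The filter used KO ES and KO N2B27 libraries, so genes that reached 1 FPKM in EBs alone were left out of these counts. With the filter over all 15 libraries 5022 genes were higher and 3833 lower, and 1148 and 964 with at least a 2-fold change. TPM scaling of the genes tested gave 6524 and 2392 (73.2% of calls higher, against 58.5%, with the median of all genes at 0.30 against 0.09). This comparison shares the KO N2B27 libraries with the one above, so values are given side by side without a joint test. Pluripotency genes were lower in N2B27 than in EBs: Zfp42 was at 92.05, 57.54 and 89.54 FPKM in EBs and at most 3.08 in N2B27, and 18 of the 19 naive genes tested were lower and 1 was higher. Neural genes were higher. Sox1 was at 16.73, 14.58 and 11.99 FPKM in EBs against 71.53 to 134.11 (log2 2.57 ± 0.23), Tubb3 at 20.18, 20.72 and 20.63 against 209.39 to 405.37 (log2 3.82 ± 0.21), and En1 at 9.18, 9.04 and 6.07 against 69.51 to 115.74 (log2 3.38 ± 0.21). Tubb3 was thus lower in EBs than in ES cells and higher in N2B27. Of the epithelial list 13 of 17 were lower in N2B27 than in EBs and 1 higher, with Epcam at 69.58, 86.89 and 84.22 FPKM in EBs and 15.82 to 22.32 in N2B27, although Krt8 was higher in N2B27 by 0.73 ± 0.20. Fgf5 (51.83, 36.53 and 49.72 FPKM in EBs) was lower in N2B27 by 2.81 ± 0.18 on the log2 scale. Of the glycolysis genes 26 of 31 were lower in N2B27 than in EBs, with Ldha at 1095.2, 1263.99 and 1127.61 FPKM in EBs, and 81 of 81 ribosomal protein genes were lower.

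Whether the change into N2B27 differed between KO and WT cells was tested as an interaction, and 1 gene passed. Fhl1, a LIM domain protein best known from muscle, had 10.76, 13.21 and 10.44 FPKM in KO ES and 44.1, 45.98 and 40.65 in KO N2B27, against 10.27 and 9.36 in WT ES and 82.16 and 73.5 in WT N2B27. It rose in both genotypes, and the KO N2B27 libraries lay below both WT N2B27 libraries. The difference of the changes was -1.02 ± 0.14 on the log2 scale (limma adjusted p = 0.0415). This is 0.00808% of the genes tested, and none was called with a more positive log2 change in KO than in WT. An unadjusted limma p under 0.05 was reached by 583 genes, fewer than the 618.75 expected if no gene differed. The call of Fhl1 ended in the fit of the 4 groups alone (adjusted p = 0.26) and without any 1 of 6 libraries (adjusted p = 0.0547 to 0.29), while the difference stayed between -0.92 and -1.10 there. The WT and KO changes share no library. Across the 12375 genes, which are not independent replicates, they correlated with r = 0.9833 with a slope of 1.001, and in WT 5202 genes were higher and 3704 lower (42% and 29.9%), or 18.7% and 9.59% with at least a 2-fold change. Of the 3563 genes (28.8%) called with at least a 2-fold change in KO, 3536 (99.2%) were called in the same direction in WT.

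A small group of genes was called in opposite directions in the genotypes. Those 5 genes, chosen after their values were seen, were Emp3, Enpp3, Esrra, Gpr4 and Hoxc13. Enpp3, an ectonucleotidase gene, had 3.05, 3.36 and 3.61 FPKM in KO ES and 4.78, 5.31 and 6.04 in KO N2B27, but 6.07 and 4.38 in WT ES and 3.24 and 4 in WT N2B27 (difference 0.97 ± 0.23; adjusted p = 0.713). Hoxc13 had 1.01, 1.1 and 0.95 and then 0.51, 0.62 and 0.7 in KO, and 0.79 and 0.59 and then 1.16 and 1.88 in WT (difference -0.89 ± 0.19; adjusted p = 0.605). Their levels were low, and none of the 5 differences passed the limma test of the interaction over all genes.

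**Figure D4:**
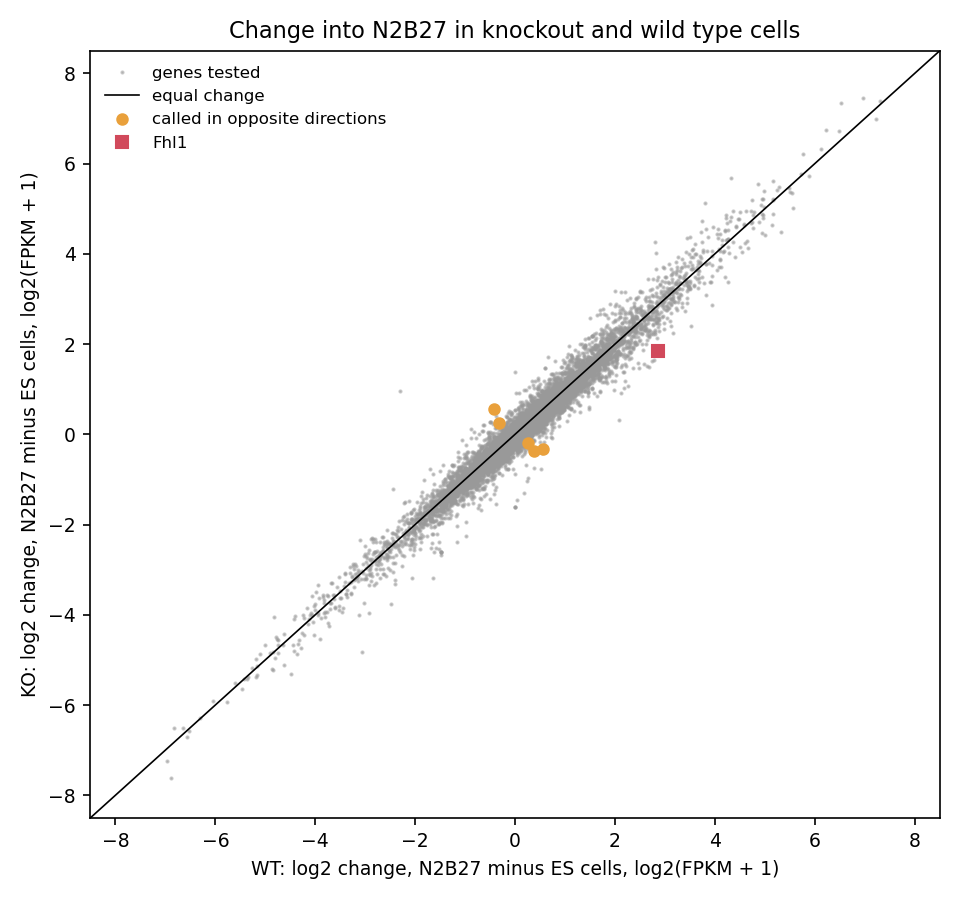
log2 change from ES cells to N2B27 in KO cells (y axis) against that in WT cells (x axis), 1 grey point for each of 12375 genes, with the line of equal change. Points follow the line over the whole range. Fhl1 (red square) lies below it, and the 5 genes called in opposite directions (orange) lie near the origin.

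The count of interaction calls changed most when KO N2B27 replicate 2 was left out. Without that library 34 genes were called, 31 with a more positive and 3 with a more negative log2 change in KO than in WT. The sign decides here, so a gene that fell less in KO than in WT is among the more positive. Since these genes were found by leaving the library out, its place among them is a description only. Lmx1a had 21.72 and 25.3 FPKM in KO N2B27 replicates 1 and 3, 9.56 in replicate 2, and 6.2 and 8.59 in WT N2B27 (difference in change 1.21 ± 0.38 with the 3 replicates, adjusted p = 0.812, and adjusted p = 0.00416 without replicate 2). Wnt3a, expressed at the dorsal midline of the neural tube, had 10.61 and 10.6 in replicates 1 and 3, 5.51 in replicate 2, and 5.31 and 4.93 in WT. Gdf7, a BMP-family signal of the roof plate, had 8.53 and 9.68, then 3.28, and 3.3 and 3.09 in WT. In these 3 genes replicate 2 was nearer to the WT libraries than to the other KO libraries, and so it was in 28 of the 34. Other genes of this group were the neurotrophin gene Ntf3, and the guidance genes Slit2 and Draxin. With all 3 replicates none of these but Fhl1 passed the limma threshold.

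**Figure D5:**
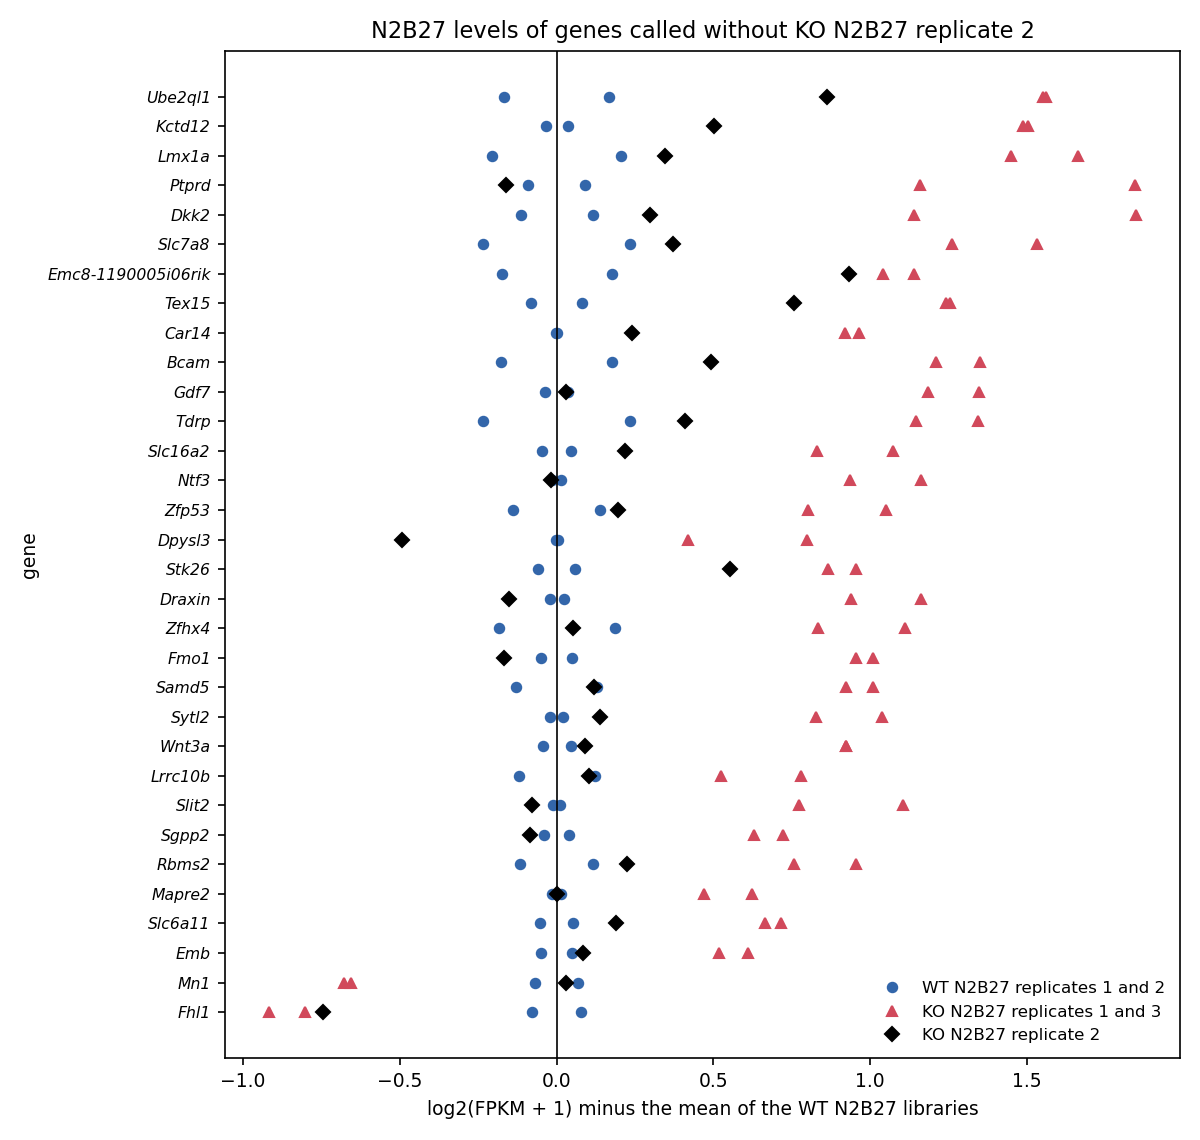
N2B27 levels of 32 of the 34 genes (y axis) called in the interaction without KO N2B27 replicate 2, as log2(FPKM + 1) minus the mean of the WT N2B27 libraries (x axis). Circles are WT libraries, triangles KO replicates 1 and 3 and diamonds KO replicate 2. The diamond is nearer to the WT circles than to the triangles in 27 of the 32 genes drawn, and for Fhl1 it sits with the triangles.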

How the data were processed

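The submitters' notes name Bowtie2, RSEM and the mouse build mm10, without versions or settings. Per the file headers, the authors deposited one table of FPKM values per gene for 15 mRNA libraries, and a gene's FPKM is its fragments divided by the transcript's length and the library's size. Depth is unknown, since low values did not resolve into whole fragments, so no counting interval is given. The 27 symbols that had been turned into dates were restored. Genes with at least 1 FPKM in at least 2 of the 6 KO ES and KO N2B27 libraries were kept (12375 of 18762). log2(FPKM + 1) was fitted over all 15 libraries as 6 group means with limma 3.58.1 in R 4.3.3 (eBayes with trend, 9 residual degrees of freedom), two-sided, and p-values were adjusted over all genes kept by Benjamini-Hochberg at 0.05. The steps were tested on simulated data. Groups came from the labels.

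Named genes were the 12 largest non-overlapping changes per direction, up to 4 per direction and list, a fixed set of markers, and the 8 genes most variable among the KO N2B27 libraries. Further list members are named as examples, chosen after their values were seen. The members, lists and comparisons were chosen with earlier results of these data known. Alternatives were the pseudocount, the filter, the scaling, the fit of the compared groups alone, a replicate block and leaving out each library. Some genes are not reported here.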

Additional observations from a re-analysis of the deposited data

Results flagged for a closer look

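Fhl1 was singled out because its change from ES cells to N2B27 differed between the genotypes in the test of that difference. The difference was -1.022 on the log2 scale (limma adjusted p = 0.0415). Fhl1 rose in both genotypes: each of the 3 KO and 2 WT N2B27 libraries lay above all ES libraries of its genotype. It ended lower in KO N2B27 than in WT N2B27. As given above, the call was lost in the fit of the compared groups alone and when any of several single libraries was left out.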

How the results depend on the processing

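The counts of the change from ES cells to N2B27 in KO cells kept within 1.5 times of the main count in each setting run: leaving out 1 library gave 5155 to 5330 genes higher and 3935 to 4067 lower. For the interaction, the genes with a more positive log2 change in KO numbered 1 with a pseudocount of 0.1. They numbered 1 without a filter, 1 with TPM scaling and 0 to 31 when 1 library was left out. Genes with a more negative change numbered 3 without a filter and 0 in the fit of the compared groups alone. They numbered 0 to 4 when 1 library was left out. The 31 came without KO N2B27 replicate 2, and the cause was not tested. Replicate numbers in the labels are not stated to pair cultures and were not taken as pairs. Same-numbered KO ES and KO N2B27 libraries deviated together with r = 0.044, 0.045 and 0.190, and other-numbered ones with r from -0.146 to 0.099. These values do not settle whether the numbers pair the cultures. With the number as a replicate block, 5437 genes were higher and 4186 lower, and the interaction gave 0 and 1. Not every library correlated best with its own number. Of the median changes of the gene lists, 371 values stayed within the spread between replicates and 79 moved. Depth is unknown, so genes near 1 FPKM are the least certain.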
